A study of Rattus norvegicus with 16 samples.

Results

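Myelinating cultures treated with F2V2 were compared directly with cultures treated with wtFGF2. The comparison rested on 8 of the 16 arrays of the series, the 4 labelled F2V2 and the 4 labelled wtFGF2, and asked what the truncated protein changed beyond a milder form of the response to wtFGF2. The cultures were spinal cord cells of Sprague-Dawley rat embryos plated on astrocytes grown from neurospheres of neonatal striatum, so that neurons, oligodendroglia, astrocytes and microglia contributed RNA to one extract. All groups shared this culture system and strain, the labels give no mutation or transgene, and treatment began after 18 days in vitro and lasted 24 h. F2V2 cultures received a human FGF2 lacking an N-terminal stretch, made in bacteria and purified on heparin. wtFGF2 cultures received a protein known here only by that name, whose dose and origin are not given in the sources used here, so protein sequence, preparation and dose cannot be told apart as the source of any difference. The other groups were 4 humanFGF2 arrays, treated with commercial human FGF2, and 4 control arrays of untreated cultures. The values are log2 signals per transcript cluster, the probe group that stands for one gene. They ran from 3.02 to 14.49, and values under 5 were taken as dim. The number of arrays limits the precision of every value. The study refers to independent cultures in one place and to technical replicates in another, so that all p-values rest on array-to-array spread, which may be technical.

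FGF2 binds FGF receptor tyrosine kinases together with heparan sulfate, and the receptors signal mainly through the MAP kinase ERK. ERK induces transcription factors of the Fos, Egr and ETS families, and also its own inhibitors, the Sprouty proteins and dual specificity phosphatases. In glial cultures FGF2 is known as a mitogen for oligodendrocyte progenitors and as a factor that holds back myelin genes. Interferon-stimulated genes and NF-κB target genes, which appear below, are best known from antiviral and inflammatory responses and are switched on by the Stat and Irf factors and by NF-κB.

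Arrays of one group resembled each other closely, with correlations of 0.9957 to 0.9974 among F2V2 arrays and 0.997 to 0.9979 among wtFGF2 arrays. On the first principal component of all arrays, which held 63% of the variance, F2V2 arrays scored between -2.66 and 2.99 and wtFGF2 arrays between 9.69 and 12.1, with humanFGF2 between 24 and 27.8 and control between -38.5 and -35.9. On the second component, with 9.4% of the variance, F2V2 arrays lay at one end, between -18.7 and -9.56, while wtFGF2 arrays lay between -4.43 and 1.33, humanFGF2 arrays between 7.02 and 10 and control arrays between 3.54 and 9.77.

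Of 15653 transcripts tested, 222 differed between F2V2 and wtFGF2, or 1.42%, where called, here and in the following, stands for passing both 0.05 on the adjusted p and 1.4-fold on the size. With F2V2, 140 were higher and 82 were lower. The largest rise was 4.54-fold and the largest fall 6.87-fold. F2V2 and wtFGF2 arrays did not overlap in 216 of the called transcripts, a property that 9.73% of all tested transcripts had. In 17 of the 222, the lower of the F2V2 and wtFGF2 means was dim. For comparison, 1468 transcripts were called between F2V2 and control, and 2032 between wtFGF2 and control.

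For 142 of the 222, or 64%, wtFGF2 was called against control and F2V2 lay on the control side of wtFGF2. Among those higher with F2V2 these were 39 transcripts that only wtFGF2 lowered and 30 that both proteins lowered, and among those lower with F2V2 they were 30 that only wtFGF2 raised and 43 that both raised. A further 22 were called between F2V2 and wtFGF2 but in neither against control. The remaining 58, or 26.1%, were called in the same direction against wtFGF2 and against control, so that F2V2 lay beyond both. They made up 0.371% of all tested transcripts, and 57 of them were higher with F2V2 and 1, Wnt2, was lower. The F2V2, wtFGF2 and control arrays each enter 2 of these contrasts, so the counts are not independent of each other.

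**Figure D1:**
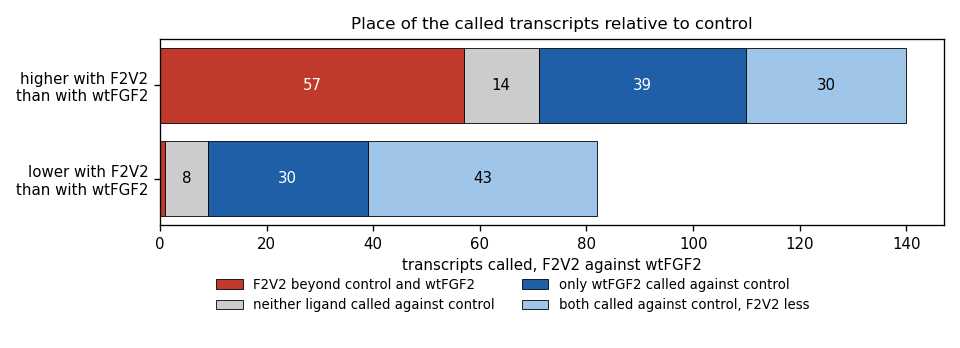
Number of transcripts called between F2V2 and wtFGF2 (horizontal axis), separated into those higher (top bar) and lower (bottom bar) with F2V2 and coloured by the calls of each protein against control. F2V2 lay beyond both wtFGF2 and control in 57 of the 140 higher transcripts and in 1 of the 82 lower ones.

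Among the 57 transcripts that F2V2 raised beyond both, wtFGF2 was not called against control in 39, was called above control in 12 and was called below control in 6. The choice of the 57 set F2V2 above wtFGF2 and control, and its mean was also above that of humanFGF2 in all 57. Of the 57, 44 were called higher with F2V2 than with humanFGF2. This contrast shares the F2V2 arrays with those that chose the 57, so it is not independent of them. In that commercial preparation, 39 of the 57 were not called against control, 12 were above it and 6 below it. Between wtFGF2 and humanFGF2 themselves, 3 of the 57 were called. F2V2 replicate 3 was the highest of the F2V2 arrays for 33 of the 57, and 46 transcripts were called beyond both in the fit without it.

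**Figure D2:**
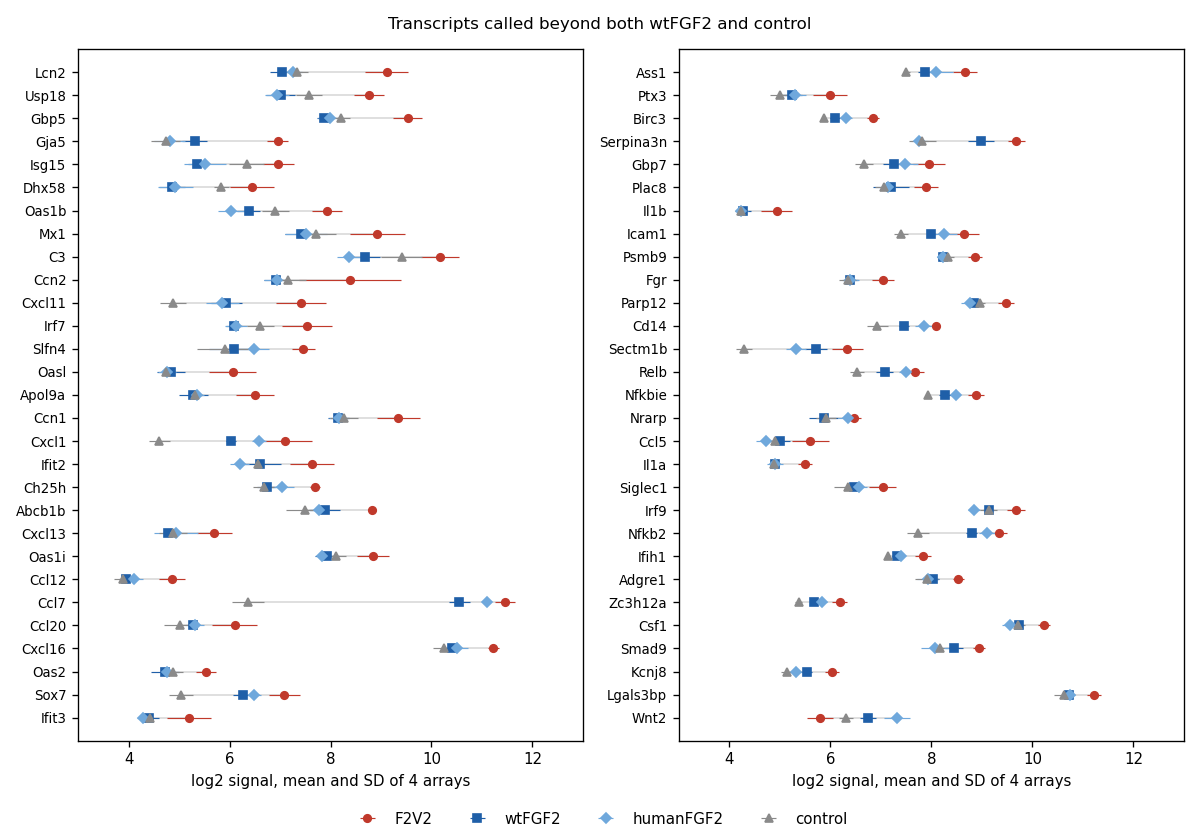
Mean log2 signal and SD of 4 arrays (horizontal axis) for the 58 transcripts called beyond both wtFGF2 and control, ordered by the difference between F2V2 and wtFGF2 down the left and then the right panel, with F2V2 as circles, wtFGF2 as squares, humanFGF2 as diamonds and control as triangles. F2V2 is rightmost in every row but the last, Wnt2, where it is leftmost.

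The largest group among the transcripts higher with F2V2 was made of interferon-stimulated genes. Of 43 measured antiviral effectors of this kind, 26 were called higher with F2V2 and 0 lower, against 0.948% of all genes called higher and 0.556% called lower. Their median difference was 0.677 on the log2 scale, against -0.018 over all genes, and 41 of the 43 differences were positive. Set against control, 21 of the 43 were higher and 0 lower with F2V2, where 5.92% of all genes were higher and 3.7% lower, while 4 were higher and 14 lower with wtFGF2, where 7.19% of all genes were higher and 6.06% lower. The 2 contrasts share the control arrays. Of the 26 called members, 15 lay beyond both wtFGF2 and control.

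Rsad2, which encodes the antiviral enzyme viperin, had the largest rise with F2V2 over wtFGF2 among the called genes. Its signal was 7.55, 7.60, 8.28 and 8.84 on the F2V2 arrays and 6.58, 5.68, 6.24 and 5.04 on the wtFGF2 arrays, with 6.47, 7.32, 7.05 and 7.71 on the control arrays. No F2V2 array was as low as any wtFGF2 array, and the log2 difference was 2.18 (standard error 0.35, adjusted p = 0.00147). wtFGF2 lowered it against control by 1.25 on the log2 scale, and F2V2 stood 0.93 above control (adjusted p = 0.0506), so it is not among the 57. Usp18, the protease that takes Isg15 off its target proteins, gave 8.37, 8.71, 8.96 and 9.01 with F2V2 and 7.23, 6.75, 7.29 and 6.77 with wtFGF2, against a control mean of 7.58. The difference of 1.75 (standard error 0.17, adjusted p = 1.82e-05) put F2V2 above and wtFGF2 below the control arrays' mean. Isg15 itself, a small protein that is attached to others like ubiquitin, had 6.58, 7.18, 7.23 and 6.87 with F2V2 and 5.51, 5.21, 5.54 and 5.20 with wtFGF2. Here F2V2 lay 0.63 above control and wtFGF2 0.97 below it, and both differences were called. Gbp5, a guanylate-binding GTPase, reached 9.35, 9.34, 9.94 and 9.48 with F2V2 and 7.94, 7.76, 8.0 and 7.75 with wtFGF2. The control mean of Gbp5 was 8.20, between those of the 2 treatments, and the difference between F2V2 and wtFGF2 was 1.67 (adjusted p = 2.87e-06).

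Other members differed in where wtFGF2 stood relative to control. Dhx58, the RNA helicase also called Lgp2, measured 6.07, 6.26, 7.06 and 6.40 with F2V2 and 4.96, 4.63, 5.18 and 4.66 with wtFGF2. Its F2V2 mean was 0.61 above control and its wtFGF2 mean 0.97 below. Oas1b, of the oligoadenylate synthetase family, measured 7.65, 7.89, 8.34 and 7.85 with F2V2 and 6.61, 6.19, 6.55 and 6.18 with wtFGF2, a difference of 1.55 (standard error 0.17, adjusted p = 4.07e-05). The dynamin-like GTPase Mx1 measured 8.17, 8.89, 9.39 and 9.25 with F2V2 and 7.72, 7.36, 7.63 and 6.98 with wtFGF2. The control mean of Mx1 was 7.72, and F2V2 was called against it (1.20) while wtFGF2 was not (-0.30, adjusted p = 0.409). Ifit2 and Ifit3, whose proteins bind viral RNA, were 1.04 and 0.80 higher with F2V2 than with wtFGF2, while their wtFGF2 means of 6.6 and 4.40 lay next to the control means of 6.56 and 4.43. Both calls were lost when the 8 F2V2 and wtFGF2 arrays were fitted alone (adjusted p = 0.0558 for Ifit2 and 0.064 for Ifit3). A different pattern was seen for Oasl2, Cmpk2, Ifi44, Irgm and Trim21, whose F2V2 means were within 0.09 of control while wtFGF2 was called below control for each of them. The list thus held genes that F2V2 raised above control and genes for which only wtFGF2 was called, below control.

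**Figure D3:**
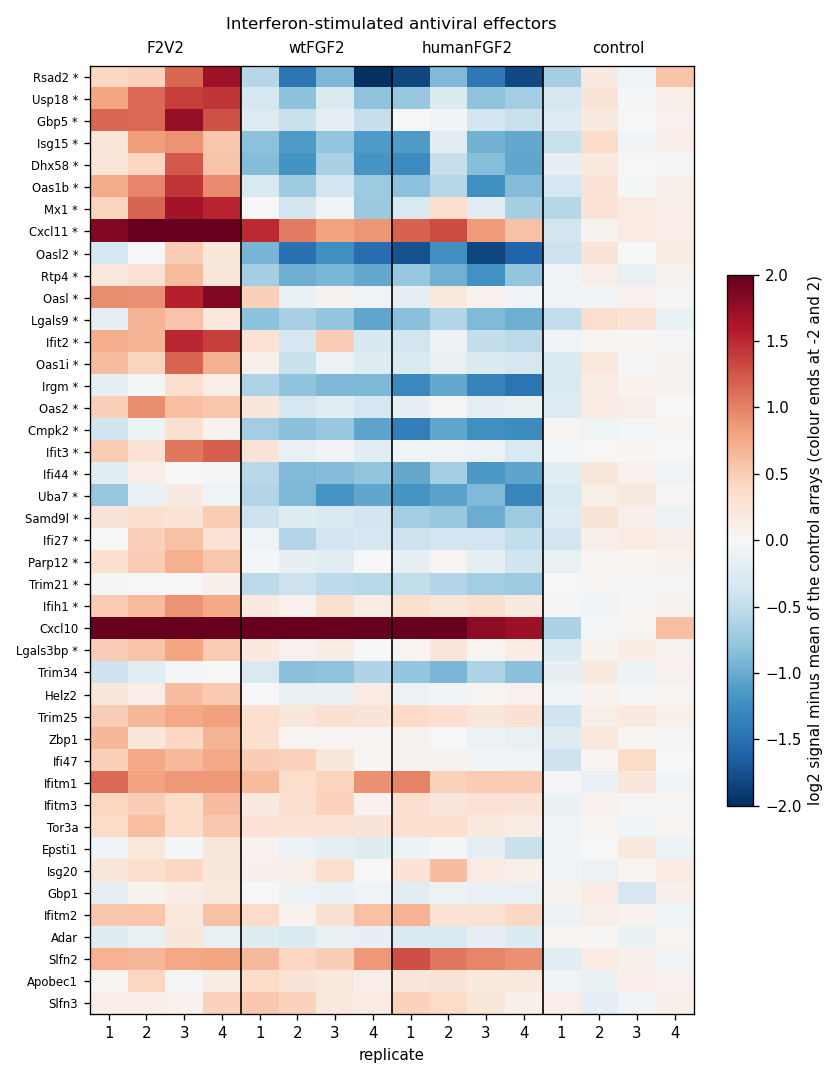
Log2 signal of the 43 measured interferon-stimulated antiviral effectors on each array (columns, replicates 1 to 4 of each group) after subtraction of the mean of the control arrays, with rows ordered by the difference between F2V2 and wtFGF2 and an asterisk on the 26 called genes (colours end at -2 and 2). In the 26 called rows the F2V2 columns are redder than the wtFGF2 columns, which are blue in many of them.

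Among the factors that carry the interferon signal, 3 of 18 measured genes were called, all higher with F2V2, where 0.948% of all genes were higher. Irf7, the transcription factor that amplifies type I interferon production, gave 6.91, 7.58, 8.10 and 7.55 with F2V2 and 6.21, 6.08, 6.19 and 5.88 with wtFGF2, a difference of 1.45 (adjusted p = 0.00031). Irf9 and Stat2, which belong to the DNA-binding complex downstream of the type I receptor, were 0.54 and 0.55 higher. Of the 3, 2 lay beyond both wtFGF2 and control, and Stat2 did not. F2V2 was not called against control for Stat2 (-0.12, adjusted p = 0.224), while wtFGF2 was called 0.68 below control. The interferon genes themselves were dim in every group. Ifnb1 averaged 4.61 with F2V2, 4.73 with wtFGF2 and 4.53 in control, Ifna1 4.30 with F2V2, 4.31 with wtFGF2 and 4.29 in control, and Ifng 4.80 with F2V2, 4.88 with wtFGF2 and 4.80 in control, none of them called. The receptor genes Ifnar1, Ifngr1 and Ifngr2 differed by 0.09, 0.12 and 0.13 (adjusted p = 0.45, 0.511 and 0.236). Of 15 measured interferon-inducible GTPases and Schlafen proteins, a list chosen after the values were seen and sharing members with the first, 9 were called higher and 0 lower. Slfn4, a member of the Schlafen family, had 7.14, 7.46, 7.60 and 7.66 with F2V2 and 6.83, 5.74, 5.88 and 5.89 with wtFGF2, and its wtFGF2 and control means of 6.09 and 5.90 were close.

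In class I antigen presentation, 3 of 18 measured genes were called higher, where 0.948% of all genes were. These were the immunoproteasome subunits Psmb8 (0.58) and Psmb9 (0.64) and the class I gene RT1-S3 (0.78). The median difference was 0.247. Against control, F2V2 was called higher for Psmb9 (0.55). It was not called for Psmb8 (0.25, adjusted p = 0.147) or RT1-S3 (0.35, adjusted p = 0.204). In the fit without F2V2 replicate 3, 1 of the 18 was called. Tap1, which pumps peptides into the endoplasmic reticulum, differed by 0.44 and passed on adjusted p (0.00496) but not on size.

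The F2V2 arrays differed among themselves in these genes. Replicate 3 was the highest F2V2 array for 17 of the 26 called interferon-stimulated genes and replicate 1 the lowest for 21, and without replicate 3 the fit still called 23 of the list. Summed over the 43 genes on the linear scale, the signal was between 17500 and 22600 with F2V2 and between 12600 and 13900 with wtFGF2, with 12300 to 15500 in control, so no F2V2 array overlapped either group. Microglia and macrophages, known for strong interferon responses, were checked by 18 measured marker genes. None of the 18 was called, 15 of the 18 differences were positive, and their median was 0.122. The summed signal ran from 11800 to 13800 with F2V2 and from 10200 to 12300 with wtFGF2, with 9860 to 12400 in control. The part of microglial number in the interferon-stimulated genes was not tested, and in RNA from mixed cells a change in cell number cannot be told apart from a change in RNA per cell.

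The promoters of the called interferon-stimulated genes were searched for the core of the interferon-stimulated response element, a pair of GAAA half-sites with any 2 bases between them, on both strands of the 250 bases before the start of transcription (RefSeq, GRCr8). Of the 26 genes, 19 had a promoter in the table and 14 of these, or 73.7%, held the motif. Among all measured genes of the list, called or not, 19 of the 33 with a promoter, or 57.6%, held it, so the motif was common in the list itself. It occurred in 3.23% of the promoters of all genes tested, 3.29% of all promoters in the table, and 4.62% of the 65 promoters of genes called lower with F2V2. Overlapping matches were counted once per promoter. A match describes the sequence and is no proof of a bound site. Stretches from 5 of the 14 promoters, written 5′ to 3′ on the strand of the gene, are shown so that the motif, in capitals, can be compared between them: Rsad2 at chr6:48788233-48788292 on the minus strand, Gbp5 at chr2:233910918-233910977 on the plus strand, Oas1b at chr12:41395871-41395936 on the minus strand, Oas1i at chr12:41285165-41285225 on the plus strand and Ifit3 at chr1:241527257-241527316 on the plus strand.
Rsad2: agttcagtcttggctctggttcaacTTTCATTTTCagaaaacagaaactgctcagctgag
Gbp5: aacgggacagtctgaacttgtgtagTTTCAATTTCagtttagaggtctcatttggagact
Oas1b: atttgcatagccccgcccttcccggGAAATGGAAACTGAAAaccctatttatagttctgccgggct
Oas1i: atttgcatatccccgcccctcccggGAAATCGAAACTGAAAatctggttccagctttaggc
Ifit3: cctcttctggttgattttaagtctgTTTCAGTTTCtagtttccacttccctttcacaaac
Oas1b and Oas1i, members of one family, each carried a pair of overlapping matches close to the start. The other stretches have 1 match each, in Rsad2, Gbp5 and Ifit3 on the opposite strand.

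Chemokines formed the next group. Of 25 measured chemokine and chemokine receptor genes, 8 were called higher with F2V2 and 0 lower, where 0.948% of all genes were higher and 0.556% lower. The median difference was 0.302. Against control, 12 were called higher with F2V2, where 5.92% of all genes were, and 3 with wtFGF2, where 7.19% were. Of the 25, 11 were dim on average. Cxcl1, which attracts neutrophils and acts on oligodendrocyte progenitors, had 6.88, 6.95, 7.88 and 6.65 with F2V2 and 5.94, 6.05, 6.17 and 5.97 with wtFGF2. Both proteins raised it over the control mean of 4.60, F2V2 by 2.49 and wtFGF2 by 1.43, and humanFGF2 by 1.98. Ccl7, a monocyte attractant, had the largest difference from control with either protein among the 25. Its signal was 11.57, 11.56, 11.52 and 11.17 with F2V2 and 10.66, 10.32, 10.43 and 10.78 with wtFGF2, against 6.37 in control, and the difference of 0.90 came on top of a rise shared by both. The humanFGF2 mean of Ccl7 was 11.11. F2V2 was not called against humanFGF2 (0.34, adjusted p = 0.0866), while wtFGF2 was called below humanFGF2 (-0.56, adjusted p = 0.016). Cxcl11, a ligand of the receptor Cxcr3 and an interferon-stimulated gene, was not among the 25 listed. It measured 6.72, 7.41, 7.91 and 7.61 with F2V2 and 6.38, 5.92, 5.68 and 5.77 with wtFGF2, with a control mean of 4.88.

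For other chemokines only F2V2 stood above control. Ccl20 gave 5.63, 5.99, 6.70 and 6.10 with F2V2 and 5.27, 5.35, 5.13 and 5.36 with wtFGF2, Cxcl13, which attracts B cells, 6.15, 5.60, 5.72 and 5.31 with F2V2 and 4.86, 4.74, 4.85 and 4.65 with wtFGF2, and Cxcl16 11.14, 11.23, 11.38 and 11.14 with F2V2 and 10.64, 10.44, 10.19 and 10.33 with wtFGF2. In these 3 genes wtFGF2 was within 0.26 of control and was not called. Ccl12 and Ccl5 were also called beyond both, Ccl5 with overlap between F2V2 and wtFGF2 arrays, at low signals of 4.87 and 5.60 with F2V2 and 3.95 and 5.0 with wtFGF2. Cxcr4, the receptor for Cxcl12, was 0.52 higher with F2V2, and against control only wtFGF2 was called, 0.68 lower. Ccl2, the chemokine with the highest signal, did not pass, with means of 13.05 with F2V2 and 12.75 with wtFGF2 (adjusted p = 0.127). Cxcl10 averaged 9.67 with F2V2 and 9.18 with wtFGF2, and the control mean was 6.81 (adjusted p = 0.484 between them).

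NF-κB genes were looked at as a list chosen after the values were seen. Of 18 measured subunits, inhibitors and kinases, 4 were called higher and 0 lower, where 0.948% of all genes were higher and 0.556% lower. All 4 lay beyond both wtFGF2 and control. Nfkb2, which encodes a subunit of the non-canonical pathway, gave 9.36, 9.21, 9.56 and 9.20 with F2V2 and 8.68, 8.75, 8.93 and 8.84 with wtFGF2. Relb, the partner of that subunit, gave 7.84, 7.75, 7.71 and 7.43 with F2V2 and 6.94, 7.19, 7.23 and 6.92 with wtFGF2. Both were above control with each protein, F2V2 by 1.59 and 1.15 and wtFGF2 by 1.06 and 0.54. The inhibitor gene Nfkbie and the ubiquitin ligase gene Birc3 were 0.61 and 0.75 higher with F2V2. Set against humanFGF2, F2V2 was called higher for Birc3 (0.53). It was not called for Relb (0.19, adjusted p = 0.219) or for Nfkbie (0.40, under the fold threshold). Nfkbia, which encodes the main inhibitor of NF-κB, differed by 0.34 (adjusted p = 0.035) and missed the fold threshold, and Nfkb1 differed by 0.35 (adjusted p = 0.108). Of genes outside this list, chosen after their values were seen, Icam1 (0.65), a leukocyte adhesion molecule, Zc3h12a (0.51), an RNase that degrades cytokine mRNA, and Ptx3 (0.76), a soluble pattern recognition protein, were called higher. Of 19 measured pattern recognition receptors and adaptors, again listed after the values were seen, 2 were called, Tlr5 (0.77) and Cd14 (0.62). F2V2 was also called higher than humanFGF2 for Ptx3 (0.70) and Tlr5 (0.71), but not for Icam1 (0.40) or Cd14 (0.23).

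Of 26 measured cytokines and growth factors of the IL-6, IL-1, TNF and EGF families, 2 rose and 2 fell with F2V2. Of all genes, 0.948% were called higher and 0.556% lower. The 2 that rose were Il1b and Il1a. Il1b read 5.40, 4.76, 4.85 and 4.74 with F2V2 and 4.46, 4.30, 4.10 and 4.25 with wtFGF2, with a control mean of 4.23, and Il1a 5.55, 5.30, 5.61 and 5.53 with F2V2 and 4.98, 4.95, 4.95 and 4.76 with wtFGF2, with 4.89. All wtFGF2 values of both genes were dim, as were all but 1 of the F2V2 values of Il1b. Tnf and Il6 averaged 5.42 and 5.21 with F2V2 and 5.07 and 4.94 with wtFGF2 and were not called (adjusted p = 0.0946 and 0.152). Csf1, the growth factor of microglia, was raised by F2V2 only, with 10.24, 10.08, 10.26 and 10.35 against 9.69, 9.70, 9.69 and 9.86 with wtFGF2 and a control mean of 9.72.

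Lcn2, the siderophore-binding lipocalin that astrocytes secrete in inflammation, showed the largest difference of the genes beyond both. It gave 8.63, 9.03, 9.67 and 9.14 with F2V2 and 6.99, 7.0, 7.35 and 6.78 with wtFGF2, and the control arrays gave 7.23, 7.51, 7.54 and 7.10. All F2V2 arrays were above all others, and the difference was 2.08 (standard error 0.17, adjusted p = 4.13e-06) over wtFGF2 and 1.77 (adjusted p = 7.99e-07) over control. C3, the central component of complement, measured 10.05, 9.93, 10.74 and 9.98 with F2V2 and 9.10, 8.56, 8.69 and 8.40 with wtFGF2. Its F2V2 mean lay 0.77 above and its wtFGF2 mean 0.72 below control. Of the 10 measured complement genes 2 were called, C3 and the protease gene C1r, and 1 of the 10 was called without F2V2 replicate 3. Serpina3n, a protease inhibitor used as a marker of reactive astrocytes, reached 9.55, 9.62, 9.94 and 9.62 with F2V2 and 9.04, 9.05, 9.24 and 8.63 with wtFGF2, with a control mean of 7.82. Both proteins raised it, and humanFGF2, with a mean of 7.76, was not called against control. Among 30 measured reactive astrocyte genes, 7 were called higher and 0 lower, where 0.948% of all genes were higher and 0.556% lower. The 7 were Lcn2, Ptx3, Serpina3n, Fbln5, Cd14, Psmb8 and Cp. Vim and the other members were not called, and the median of the list was 0.0986.

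The consensus sequence of NF-κB was found, on either strand of the 250 bases, in 11 of the 46 promoters of genes called above both wtFGF2 and control, or 23.9%, against 16.5% for all genes called higher, 6.15% for genes called lower, 15.2% for the measured interferon-stimulated genes, 3.96% of the promoters of all genes tested and 3.52% of all promoters in the table. The interferon element occurred in 11 of the same 46. Stretches of 4 promoters show the NF-κB match, in capitals, in genes that both proteins raised (Cxcl1, Nfkb2), in one that only F2V2 raised (Lcn2) and in an interferon-stimulated chemokine gene (Cxcl11): Lcn2 at chr3:36081988-36082030 on the minus strand, Cxcl1 at chr14:17479370-17479430 on the minus strand, Nfkb2 at chr1:255108329-255108373 on the plus strand and Cxcl11 at chr14:15973629-15973688 on the plus strand.
Lcn2: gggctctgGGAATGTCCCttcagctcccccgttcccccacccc
Cxcl1: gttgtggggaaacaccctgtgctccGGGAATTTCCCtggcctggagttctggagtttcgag
Nfkb2: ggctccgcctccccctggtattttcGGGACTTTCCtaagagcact
Cxcl11: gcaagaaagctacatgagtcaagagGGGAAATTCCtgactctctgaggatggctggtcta
In Cxcl1 the capitals cover 2 overlapping matches.

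**Figure D4:**
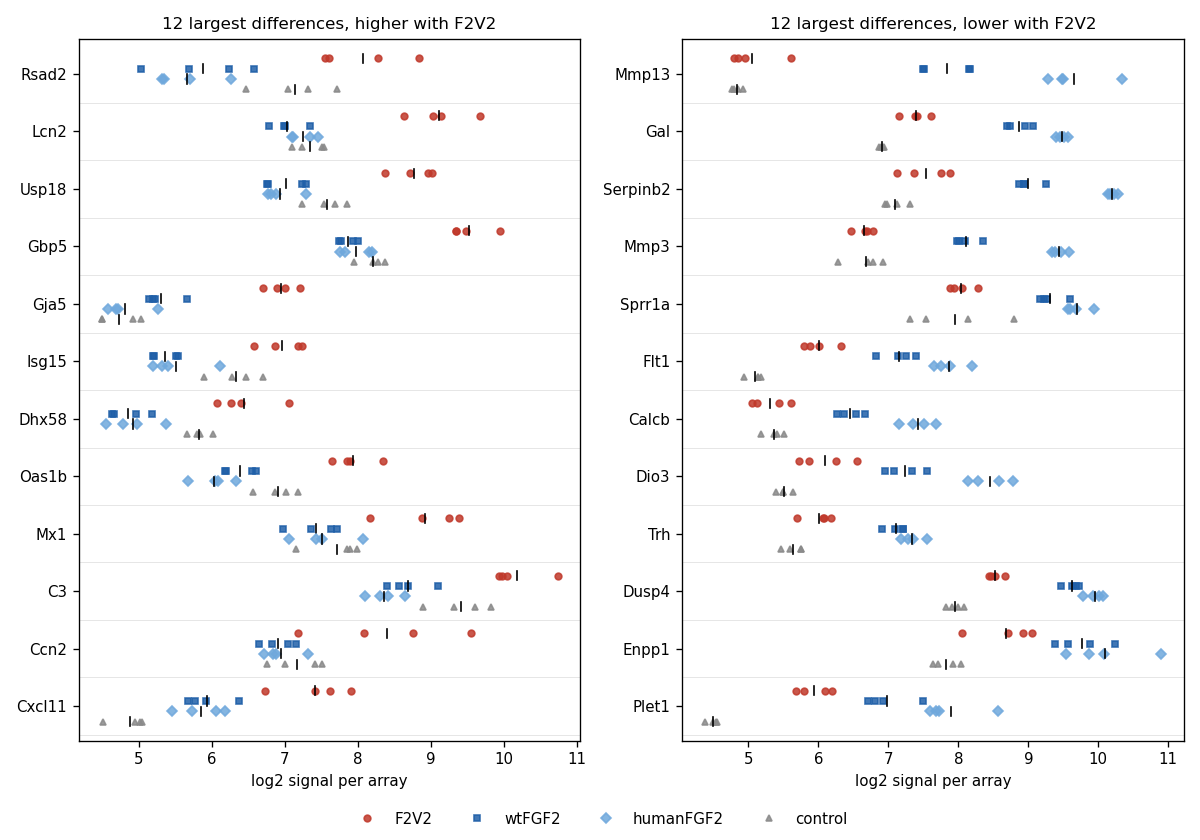
Log2 signal on each array (horizontal axis) for the 12 genes with the largest positive (left) and the 12 with the largest negative (right) differences between F2V2 and wtFGF2 among called genes without overlap, with F2V2 as circles, wtFGF2 as squares, humanFGF2 as diamonds, control as triangles and group means as black ticks. On the left the wtFGF2 and humanFGF2 means lie below control except for Gja5 and Cxcl11, and on the right the means run from low to high as control, F2V2, wtFGF2 and humanFGF2 except for Mmp3 and Calcb, where F2V2 is just below control.

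Several further genes beyond both were looked at apart from the interferon-stimulated and NF-κB genes. Gja5, a gap junction protein, measured 6.70, 6.90, 7.21 and 7.0 with F2V2 and 5.14, 5.22, 5.66 and 5.19 with wtFGF2, with a control mean of 4.73. The difference of 1.65 (standard error 0.16, adjusted p = 2.42e-05) was larger than that of any other gene described in this paragraph. Sox7, an endothelial transcription factor in other tissues, measured 7.12, 7.41, 7.14 and 6.66 with F2V2 and 6.14, 6.59, 6.14 and 6.23 with wtFGF2, above a control mean of 5.04. The drug exporter gene Abcb1b had 8.90, 8.72, 8.82 and 8.84 with F2V2 and 8.14, 8.09, 7.46 and 7.85 with wtFGF2, and Ch25h, which makes a signalling oxysterol, had 7.70, 7.62, 7.84 and 7.62 with F2V2 and 6.99, 6.75, 6.65 and 6.55 with wtFGF2. Ass1, an enzyme of arginine synthesis, was 0.79 higher. Of 12 measured endothelial and ependymal marker genes 0 were called, with summed signals of 1240 to 1350 with F2V2 and 1050 to 1410 with wtFGF2, and 1330 to 1760 in control. Cldn5, which defines barrier endothelium, was dim on average, 3.73 with F2V2 and 3.81 with wtFGF2.

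Ccn1 and Ccn2, matricellular proteins that are known targets of the factor Yap and of TGF-β, were higher with F2V2. Ccn2 gave 8.08, 7.18, 8.76 and 9.56 with F2V2 and 6.65, 7.15, 6.82 and 7.04 with wtFGF2, so F2V2 replicate 2 was only just above the highest wtFGF2 array, and it was below the highest control array, 7.50. Ccn1 gave 9.17, 8.87, 9.46 and 9.86 with F2V2 and 7.92, 8.33, 8.04 and 8.34 with wtFGF2, again lowest in replicate 2. The call of Ccn2 was lost without F2V2 replicate 3 (adjusted p = 0.0713), without wtFGF2 replicate 1 (0.063) and without wtFGF2 replicate 3 (0.0547), and also in the fit of the 8 F2V2 and wtFGF2 arrays alone (0.108), over all transcript clusters (0.06) and with plain ANOVA contrasts (0.0671). That of Ccn1 was lost in none of the fits without 1 array. With Ccn3, which both proteins lowered against control, 3 of the 6 measured family members were called, a list chosen after the values were seen, and 1 of 6 was called in the fit without F2V2 replicate 3. Aspn, a small proteoglycan of connective tissue, was also lowest in F2V2 replicate 2, with 8.77, 7.43, 8.71 and 9.36 with F2V2 and 6.97, 7.41, 6.83 and 7.37 with wtFGF2. Unlike Ccn1 and Ccn2, Aspn did not lie beyond both, as its control mean was 9.41. wtFGF2 was called 2.26 below control, and F2V2 was 0.84 below it and not called (adjusted p = 0.0884). The call of Aspn held without F2V2 replicate 2 and was lost without any of the 7 other F2V2 and wtFGF2 arrays (adjusted p = 0.0525 to 0.105). Of 18 measured fibroblast, pericyte and smooth muscle genes, 2 were called higher, Ogn and Kcnj8, where 0.948% of all genes were. The median difference of the 18 was 0.214. Their summed signal ran from 11200 to 14900 with F2V2, from 9940 to 11900 with wtFGF2 and from 12400 to 15500 in control. Its part in the Ccn genes was not tested.

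Mmp13, a collagenase, had the largest fall with F2V2 against wtFGF2 among the called genes. It read 4.80, 4.85, 4.95 and 5.60 on F2V2 arrays and 7.51, 7.49, 8.17 and 8.15 on wtFGF2 arrays, with 10.35, 9.50, 9.28 and 9.48 on humanFGF2 arrays and 4.77, 4.93, 4.86 and 4.80 on control arrays. The difference between F2V2 and wtFGF2 was -2.78 (standard error 0.22, adjusted p = 2.87e-06). F2V2 was 0.21 above control, a difference that was not called, while wtFGF2 was 2.99 above it. The control arrays and all but 1 of the F2V2 arrays were dim. Mmp3, or stromelysin, read 6.78, 6.70, 6.46 and 6.66 with F2V2 and 7.98, 8.0, 8.10 and 8.36 with wtFGF2, and its F2V2 and control means of 6.65 and 6.68 were close. Serpinb2, an inhibitor of plasminogen activators, read 7.88, 7.36, 7.13 and 7.75 with F2V2 and 8.86, 9.25, 8.93 and 8.94 with wtFGF2. Of 23 measured metalloproteinases, Timps and plasminogen system genes, 4 were lower and 2 higher, where 0.556% of all genes were lower and 0.948% higher. The fourth lower gene was Adamts9 (-0.49), and the 2 higher genes were Mmp2 (0.73) and Timp4 (0.80). The last 2 had been lowered by wtFGF2 against control. Timp1, with means of 12.36 with F2V2 and 12.51 with wtFGF2, was not called between them (adjusted p = 0.335).

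Neuropeptide precursors, a list chosen after the values were seen, were also among the transcripts lower with F2V2. Of 25 measured precursors, 9 were called lower and 0 higher, where 0.556% of all genes were lower and 0.948% higher. The median difference was -0.264. Against control, wtFGF2 raised 11 of the 25, where it raised 7.19% of all genes, and F2V2 raised 3, where it raised 5.92%. Gal, the precursor of galanin, measured 7.39, 7.61, 7.41 and 7.16 with F2V2 and 8.70, 9.06, 8.95 and 8.74 with wtFGF2, with a control mean of 6.91. The groups were more than 1 log2 unit apart at their nearest arrays. Calcb, which encodes a calcitonin gene-related peptide, measured 5.61, 5.13, 5.44 and 5.05 with F2V2 and 6.26, 6.36, 6.67 and 6.55 with wtFGF2, and Trh, thyrotropin-releasing hormone, 6.08, 6.18, 5.69 and 6.07 with F2V2 and 7.09, 7.21, 6.92 and 7.21 with wtFGF2. The F2V2 mean of Calcb, 5.31, was at the control mean of 5.37. Npy, Pdyn and Vip were 0.55, 0.76 and 0.50 lower on the log2 scale, and F2V2 was called against control in none of the 3. Ucn2, a peptide of the corticotropin-releasing hormone family, was raised by both proteins, with means of 7.71 with F2V2, 8.68 with wtFGF2 and 4.86 in control. Of the 16 measured neuron genes 0 were called, with summed signals of 42200 to 44200 with F2V2 and 42100 to 45900 with wtFGF2.

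Of the called transcripts lower with F2V2, all 82 had a higher mean with humanFGF2 than with F2V2, 78 were called lower with F2V2 than with humanFGF2, and 77 had a higher mean with humanFGF2 than with wtFGF2. The 2 contrasts share the F2V2 arrays. Il11 and Lif, cytokines of the IL-6 family, showed this order. Il11 gave 8.03, 7.72, 7.29 and 7.13 with F2V2 and 8.54, 8.46, 8.57 and 8.72 with wtFGF2, with means of 10.46 with humanFGF2 and 4.89 in control. F2V2 was above control (2.65) and 1.03 below wtFGF2 on the log2 scale (adjusted p = 0.00247). Lif gave 8.31, 8.42, 8.23 and 8.07 with F2V2 and 8.91, 8.74, 8.59 and 8.92 with wtFGF2, with 10.54 with humanFGF2 and 6.25 in control. Hbegf, an EGF receptor ligand, averaged 10.35 with F2V2 and 10.41 with wtFGF2 and was not called (adjusted p = 0.75).

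Among 17 measured angiogenic and neurotrophic factors, 4 fell and 1, Igfbp2, rose with F2V2. Between the same arrays, 0.556% of all genes were called lower and 0.948% higher. Flt1, a receptor for vascular endothelial growth factor, measured 6.01, 5.80, 5.88 and 6.33 with F2V2 and 7.14, 6.83, 7.40 and 7.25 with wtFGF2. Cd93, a cell surface glycoprotein, measured 9.16, 9.40, 8.95 and 8.88 with F2V2 and 9.94, 9.80, 9.75 and 10.07 with wtFGF2, against a control mean of 4.52. Bdnf, a neurotrophin, was 0.63 lower with F2V2, at 6.23 with F2V2, 6.86 with wtFGF2 and 6.09 in control. Of 26 measured BMP and TGF-β genes, 4 fell, Inhba (-0.83), which encodes an activin subunit, the activin antagonists Fstl3 (-0.63) and Fst (-0.49), and Tgfb3 (-0.62), and Smad9 (0.49), a transducer of BMP signals, rose. Smad3 was not called (-0.20, adjusted p = 0.161).

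The AP-1 motif TGANTCA, bound by Fos and Jun proteins, was found on either strand in 14 of 65 promoters of genes called lower with F2V2, or 21.5%, in 12.8% of those of genes called higher, in 17.4% of those above both wtFGF2 and control and in 5.96% of those of all genes tested. It was also in 27.3% of the promoters of the measured interferon-stimulated genes. Stretches from 4 of the 14 show the motif in capitals in protease genes, in an epithelial and injury-induced gene, Sprr1a, and in a cytokine gene: Mmp13 at chr8:12782738-12782794 on the plus strand, Mmp3 at chr8:12925185-12925241 on the plus strand, Sprr1a at chr2:180752711-180752797 on the minus strand and Il11 at chr1:78098455-78098511 on the plus strand.
Mmp13: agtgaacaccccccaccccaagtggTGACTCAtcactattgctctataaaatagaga
Mmp3: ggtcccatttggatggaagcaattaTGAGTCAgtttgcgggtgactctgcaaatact
Sprr1a: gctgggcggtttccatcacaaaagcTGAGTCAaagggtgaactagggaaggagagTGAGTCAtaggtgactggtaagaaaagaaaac
Il11: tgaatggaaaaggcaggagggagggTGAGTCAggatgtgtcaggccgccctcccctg
Mmp13 and Mmp3 each had 1 match and Sprr1a had 2. Fosl1, which encodes an AP-1 subunit, averaged 8.51 with F2V2, 8.77 with wtFGF2 and 5.69 in control and was not called between the proteins (adjusted p = 0.348).

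Wnt2, a secreted Wnt ligand, was the only transcript called below both wtFGF2 and control. It gave 6.0, 5.67, 5.50 and 6.02 with F2V2 and 6.64, 6.64, 6.71 and 6.98 with wtFGF2, with 7.60, 7.31, 6.99 and 7.36 with humanFGF2 and 6.50, 6.28, 6.15 and 6.29 in control. F2V2 lay 0.95 below wtFGF2 (adjusted p = 0.000485) and 0.51 below control (adjusted p = 0.00652) on the log2 scale. After quantile normalization or subtraction of the array medians, and without F2V2 replicate 2, F2V2 replicate 3 or control replicate 1, 0 transcripts were called below both. Of 37 measured Wnt pathway genes, 1 was called lower, Wnt2, and 1 higher, the receptor gene Lgr5 (0.52). Axin2, a feedback target of Wnt signalling, differed by -0.05 (adjusted p = 0.818). In the Notch pathway, 2 of 17 genes were higher, the target Hes5 (0.56) and the feedback inhibitor Nrarp (0.61), and the receptor gene Notch4 (-0.65) was lower. Of all genes, 0.948% were higher and 0.556% lower. Both proteins left Hes5 below control (-1.61 with F2V2 and -2.16 with wtFGF2). For Nrarp, F2V2 was not called against humanFGF2 (0.12, adjusted p = 0.607), while wtFGF2 was called below humanFGF2 (-0.49). Without F2V2 replicate 1, 0 of the 17 were called higher.

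Of 12 measured Sprouty, Spred and dual specificity phosphatase genes, 8 were above control with F2V2 and 8 with wtFGF2, and 2 were called lower with F2V2 than with wtFGF2, where 0.556% of all genes were. These were Dusp4, with 8.53, 8.67, 8.44 and 8.46 with F2V2 and 9.46, 9.72, 9.68 and 9.62 with wtFGF2, and Dusp5, 0.61 lower with F2V2. Spry2 averaged 10.46 with F2V2 and 10.45 with wtFGF2, Spry4 9.24 with F2V2 and 9.26 with wtFGF2, and Dusp6, the main ERK phosphatase of this pathway, 10.47 with F2V2 and 10.63 with wtFGF2, none called. Among 19 immediate early and ETS factors, 0 were called between the proteins, and 13 were above control with F2V2 and 14 with wtFGF2. Egr1 and Etv5 differed by -0.10 and -0.06 (adjusted p = 0.788 and 0.754). The FGF ligands, receptors and co-receptors had 0 of 14 called, with a median difference of 0.0148. Fgf2 and the receptors Fgfr1, Fgfr2 and Fgfr3 were not analysed here, and Fgfr4 was dim, at 4.66 with F2V2 and 4.71 with wtFGF2.

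Most proliferation genes were raised by both proteins. Of 30 DNA replication genes, 21 were above control with F2V2 and 27 with wtFGF2, and of 23 mitosis genes 19 with each. Between the proteins, 1 replication gene was called, Cdc6 (-0.50), a licensing factor, and 0 mitosis genes were. All 30 replication genes had a negative difference, with a median of -0.217, whereas the mitosis genes had a median of -0.0461. Sdc1, a heparan sulfate proteoglycan of the cell surface, was 0.81 lower with F2V2, the 1 gene called among 24 of its kind.

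Some markers of astrocytes and of myelin were higher with F2V2 than with wtFGF2. All 19 measured astrocyte genes had a positive difference, with a median of 0.23, and 3 were called higher, where 0.948% of all genes were. The F2V2 and wtFGF2 arrays did not overlap in 14 of the 19, against 9.73% of all transcripts. The 3 were Kcnj10 and Slc4a4, a potassium channel and a bicarbonate transporter, and Cbs, an enzyme of sulfur metabolism. Kcnj10 measured 10.88, 11.05, 11.11 and 10.88 with F2V2 and 10.46, 10.34, 10.23 and 10.30 with wtFGF2, with means of 8.95 with humanFGF2 and 11.17 in control. The summed signal of the 19 genes was 59600 to 60900 with F2V2, 51000 to 52600 with wtFGF2, 45100 to 47000 with humanFGF2 and 71700 to 74100 in control, 4 ranges that did not overlap. Of 18 myelin genes, 3 were called higher and 0 lower. Positive differences were seen in 14 of the 18, with a median of 0.155 and a range from -0.388 to 1.33. Mal, a proteolipid of compact myelin, measured 7.84, 7.86, 7.67 and 7.98 with F2V2 and 6.57, 6.29, 6.39 and 6.76 with wtFGF2, with 9.27, 9.40, 9.17 and 9.23 in control. Its difference was 1.33 (standard error 0.10, adjusted p = 2.69e-06), and both proteins left it below control, F2V2 by 1.43 and wtFGF2 by 2.76 on the log2 scale. Opalin and Mog, proteins of the oligodendrocyte surface, were 0.71 and 0.60 higher with F2V2. Mag, with a difference of 0.40 (adjusted p = 0.0107), missed the fold threshold. The summed myelin signal was 13300 to 14700 with F2V2, 12000 to 12200 with wtFGF2 and 16300 to 18600 in control. Of 16 oligodendrocyte progenitor genes 0 were called, with sums of 16600 to 17400 with F2V2 and 15500 to 16900 with wtFGF2. Lists of serine and folate enzymes, the integrated stress response, cholesterol synthesis and nucleolar factors had 0 genes called between the proteins.

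**Figure D5:**
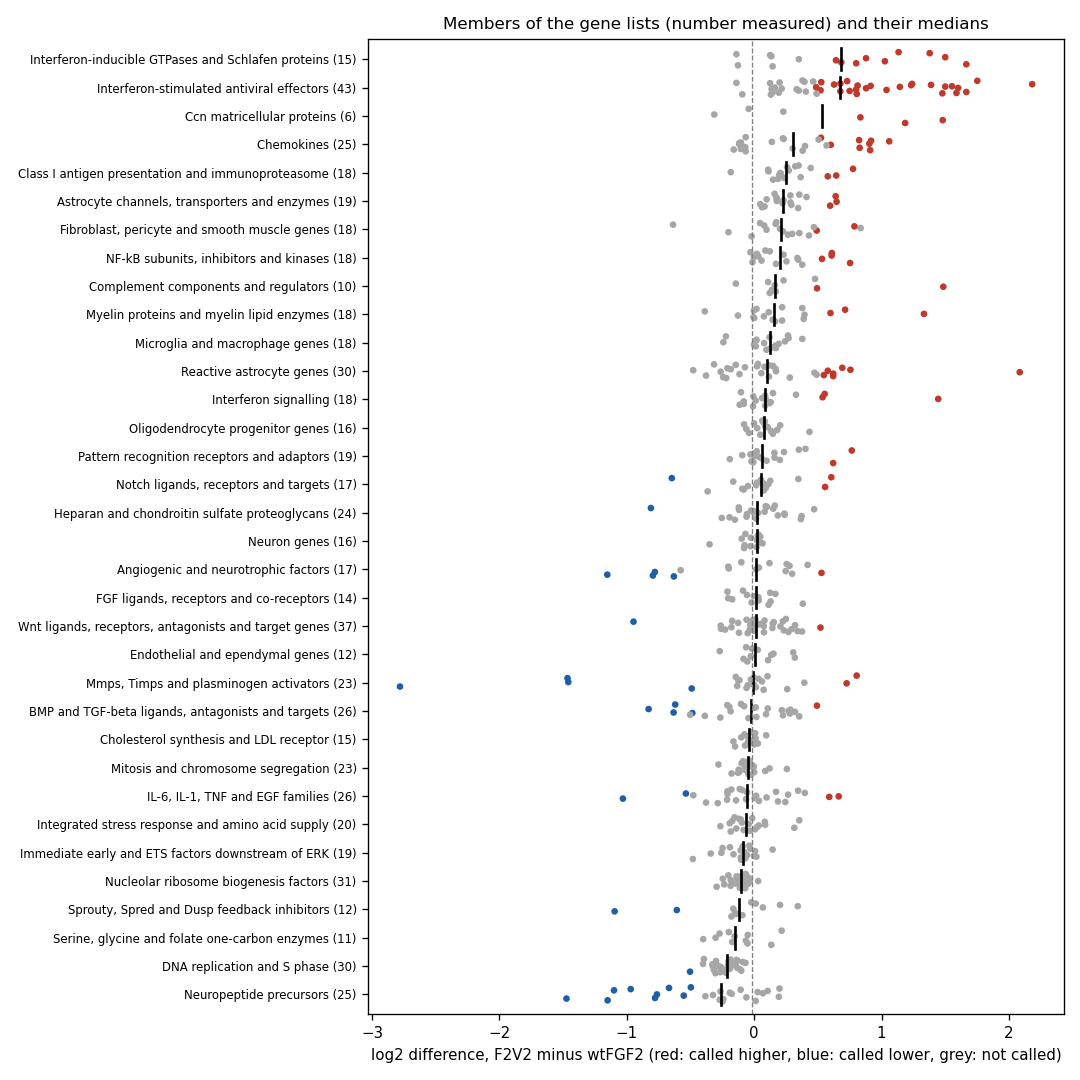
Log2 difference between F2V2 and wtFGF2 (horizontal axis) for each measured gene of each list (rows), with genes called higher in red, called lower in blue and not called in grey, the list median as a black tick and the median of all genes as a dashed line. The interferon-inducible GTPases and Schlafen proteins have the highest median, 0.684, and the neuropeptide precursors the lowest, -0.264.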

How the data were processed

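RNA of the cultures was hybridised to 16 Affymetrix rat gene arrays. The deposited log2 values were made by the authors in Partek 6.6 with GCRMA, which corrects background and normalizes between arrays, and summarised to transcript clusters by Tukey's biweight. Between-array differences in total signal had thus been adjusted before deposit, though array medians still ran from 5.805 to 5.918. The table held 36685 transcript clusters, of which 15653 had a gene symbol, 14824 with 1 symbol and 829 with several, and the 21032 without one were left out of the main test. Groups followed the labels. A linear model with 4 groups was fitted to all 16 arrays with limma 3.58.1 in R 4.3.3 (lmFit and eBayes), with Benjamini-Hochberg adjustment over the 15653 clusters. Every adjusted p in the text is from this model unless another fit is named beside it. A call required an adjusted p below 0.05 together with a 1.4-fold difference. The script was tested on simulated data.

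Genes named are the 12 highest and 12 lowest called differences without overlap, transcripts called beyond both wtFGF2 and control, the leading members of each list and genes the study names; further genes were added after their values were seen. For lists, 1 cluster stood for each gene, that of the highest mean over all arrays, and the summed level of a list is the sum of linear signals per array. The members and lists were chosen with earlier results of these data known, so no list has a test of its own. Promoters were taken from RefSeq (GRCr8) by symbol. Alternatives were the fold threshold, the arrays in the fit, the clusters tested, a filter on dim transcripts, normalization, the variance prior, plain ANOVA contrasts, the replicate block and leaving out each array.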

Additional observations from a re-analysis of the deposited data

Results flagged for a closer look

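Among the genes described, 222 sets of 4 arrays (F2V2 or wtFGF2, 1 gene each) were examined for a single array that stood apart from the other 3, by Dixon's criterion on the gap relative to the whole range. Such a gap was found in 12 sets, where chance gives about 1 in 20, and no cause was tested.

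Among F2V2 arrays, replicate 3 was high for C3 (10.74, the others 9.93 to 10.05), Tap1 (7.63, the others 7.30 to 7.32) and Smad3 (8.48, the others 8.28 to 8.31). Replicate 1 was high for Il1b (5.40, the others 4.74 to 4.85) and Tnf (5.73, the others 5.27 to 5.34) and low for Ifna1 (4.25, the others all 4.32). Replicate 4 was low for Ccl7 (11.17, the others 11.52 to 11.57).

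Among wtFGF2 arrays, Slfn4 was high in replicate 1 (6.83, the others 5.74 to 5.89), Gja5 in replicate 3 (5.66, the others 5.14 to 5.22), Tgfb3 in replicate 2 (10.00, the others 9.86 to 9.88) and Csf1 in replicate 4 (9.86, the others 9.69 to 9.70), while Il1a was low in replicate 4 (4.76, the others 4.95 to 4.98). In C3, Il1b, Ccl7, Slfn4, Gja5, Tgfb3, Csf1 and Il1a the F2V2 and wtFGF2 arrays did not overlap.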

How the results depend on the processing

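The 222 called transcripts became 614 with no fold threshold and 43 with a threshold of 2-fold, and the 58 beyond both wtFGF2 and control became 132 and 14. Under the other alternatives that kept all arrays of F2V2 and wtFGF2 the counts ran from 179 (plain ANOVA contrasts) to 259 (all transcript clusters) and from 49 to 71. Leaving out each array in turn gave 182 to 220 called transcripts and 46 to 64 beyond both, the lowest of each without F2V2 replicate 3. Replicate numbers did not pair the samples: the deviations of same-numbered F2V2 and wtFGF2 arrays correlated at -0.163, 0.123, -0.0463 and 0.1, and with a replicate block 217 and 59 were called. Of the 85 called genes named with values, 61 kept the call in all 16 alternatives run for single genes and 24 lost it in at least 1, and 0 changed sign. The fit of the 8 F2V2 and wtFGF2 arrays alone ended 11 of these calls (Aspn, Ccl5, Ccn2, Cdc6, Cxcr4, Fst, Ifit2, Ifit3, Lgr5, Psmb8 and RT1-S3), testing all transcript clusters ended 10 (Aspn, Ccl5, Ccn2, Cdc6, Fst, Hes5, Lgr5, Mmp2, RT1-S3 and Smad9), plain ANOVA contrasts 10 (the same without Cdc6 and with Tlr5) and the block 3 (Aspn, Fst and Mmp2). The array median ended that of Smad9 and the trended and robust prior that of Aspn. Without 1 array or another, calls near a threshold were lost for Ccl5, Cdc6, Csf1, Cxcr4, Fst, Hes5, Lgr5, Mmp2, RT1-S3 and Smad9, among others, with adjusted p of 0.133 for Fst without F2V2 replicate 1 as the highest. List counts without each array, a check added after seeing the data, moved by more than 1.5 times for class I presentation (1 without F2V2 replicate 3), complement (1 without F2V2 replicate 3), Ccn proteins (1 without F2V2 replicate 3), pattern recognition receptors (1 without F2V2 replicate 4) and for several lists with 1 or 2 calls in a direction. Dim transcripts limit what can be read from the interferon genes themselves.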
